A study of Homo sapiens with 4 samples.

Results

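The genes described here are the catenins and the genes named after them, CTNNA1, CTNNA2, CTNNA3, CTNNAL1, CTNNB1, CTNNBL1, CTNNBIP1, CTNND1 and CTNND2, compared between 2 colorectal cancer cell lines. Every probe set annotated to exactly 1 of these 9 symbols and to no other gene was taken, which gave 19 of the 54613 probe sets tested and represented 8 of the 9 genes. CTNND1 has no such probe set, because its 4 probe sets also carry the symbol of the read-through gene TMX2-CTNND1. Total RNA was hybridized to 4 GeneChip Human Genome U133 Plus 2.0 arrays, 2 for COLO-320DM and 2 for 320-IWR. COLO-320DM is the parental human colon cancer line, and 320-IWR is a subline that became resistant during continuous treatment with IWR-1, an inhibitor of the poly(ADP-ribose) polymerase tankyrase. 320-IWR was therefore compared with untreated parental cells as 1 selected line, and whether IWR-1 was present at harvest is not given in the sources used here. Both lines were grown in dishes to near confluency. The labels do not say that the replicates came from separate cultures, so the p-values below rest on the spread of arrays within a line, and that spread may be technical in origin.

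Catenins link cadherins, the adhesion receptors of cell junctions, to the cytoskeleton. β-Catenin binds the cadherin tail and α-catenin, which in turn binds actin, while δ-catenins hold the membrane-proximal part of the cadherin and control its turnover. β-Catenin is also the effector of canonical Wnt signaling: when the destruction complex built on Axin and APC does not mark it for degradation, it enters the nucleus and activates transcription with TCF/LEF factors. Tankyrase inhibitors stabilize Axin and thereby lower active β-catenin. The comparison asks which catenin transcripts differ between a colorectal cancer line and its subline resistant to such an inhibitor.

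As a series-wide frame, the median intensity of the 4 arrays lay between 41.1 and 41.9. A call required a 2-fold difference or more together with a limma p-value under 0.05 after Benjamini-Hochberg adjustment, and 202 probe sets met both. CDX2, an intestinal transcription factor, had intensities of 3333 ± 99.0 in COLO-320DM and 2756 ± 47.7 in 320-IWR cells (SD, n = 2 each). The epithelial surface gene EPCAM (29.3 ± 8.18 and 15.8 ± 3.26) and the brush border gene VIL1 (64.7 ± 2.27 and 68.7 ± 1.78) were dim for a colonic epithelial label (SD, n = 2 each). Among the 10 colorectal markers the keratin genes KRT8 and KRT18 were called lower (log2 fold changes -2.26 and -1.67) and KRT20 was called higher (1.78). None of the 6 neuroendocrine, 7 leukocyte, 8 fibroblast and 8 endothelium markers measured was called, and the summed intensity of each of the last 3 lists overlapped between the lines (306 to 345 and 342 to 390 for leukocytes, 738 to 1642 and 713 to 1606 for fibroblasts, 226 to 239 and 222 to 251 for endothelium, in COLO-320DM and 320-IWR). The sums did not overlap for the neuroendocrine markers (228 to 235 and 213 to 219, with ENO2 at a log2 fold change of -1.12, limma adjusted p = 0.282) and the colorectal markers (5419 to 5609 and 3704 to 3802), and their part in the results below was not tested. A sum reads mainly its brightest genes, such as CDX2 for the colorectal markers. In the fibroblast sum, COL3A1 measured 292 and 1193 in COLO-320DM and 278 and 1187 in 320-IWR cells. That is a difference between replicate numbers and not between lines. How far a dim value lies above background is unknown, because no detection calls come with the intensities.

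CTNNA2 was the catenin called higher in 320-IWR cells, and no catenin probe set was called lower, although those of CTNNA1 had lower values throughout. It encodes αN-catenin, the α-catenin of neurons. Its probe set 205373_at measured 42.9 and 37.2 in COLO-320DM cells and 211 and 219 in 320-IWR cells. The lines were thus far apart, with the replicates of each line close together. The means were 40.03 ± 4.04 and 215 ± 6.09 (SD, n = 2 each), a 5.38-fold rise (log2 fold change 2.43, 95% interval 2.08 to 2.78, limma adjusted p = 0.0128). This was 1 of the 19 catenin probe sets, beside 0.112% of all probe sets called higher and 0.370% called in either direction. CTNNA2 has no other probe set of its own, so no further probe set tests this value. In RNA of whole cultures, a change in the number of cells that express a gene and a change in RNA per cell cannot be told apart. Without COLO-320DM replicate 1 or 2 the limma adjusted p was 0.0588 and 0.0638, and without 320-IWR replicate 1 or 2 it was 0.181 and 0.195, while the log2 fold change stayed between 2.33 and 2.53.

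RefSeq lists 4 starts of CTNNA2 (GRCh38.p14), and their sequences are shown because CTNNA2 is the called gene and its starts differ widely in base composition. The array does not tell which start was used. The start at chr2:79512801-79513100 (plus strand) holds 43 CpG dinucleotides in 300 bases, more than 95.02% of the 35116 promoters in the table, whose median is 14. The other starts of CTNNA2 hold 3, 2 and 2. The most upstream start, at chr2:79185127-79185426 (plus strand), holds the motif CTTTGA, the core of TCF/LEF sites, searched on both strands (as CTTTGA or TCAAAG), as do 12.9% of all promoters of this length. The motif was found in 3 of the 16 promoters listed for the 8 catenin genes that the table holds. Of these 3, 2 are overlapping windows of CTNNA1 that share a site, so the count holds that site more than once. The start of LRRTM1, a gene that lies inside CTNNA2 on the opposite strand, is shown last. It is at chr2:80304703-80305002 (minus strand), 8627 bases from the nearest start of CTNNA2, and holds 10 CpG. Capitals mark CpG in the CpG-rich start and in the LRRTM1 start, and the motif in the most upstream start.
CTNNA2, CpG-rich start: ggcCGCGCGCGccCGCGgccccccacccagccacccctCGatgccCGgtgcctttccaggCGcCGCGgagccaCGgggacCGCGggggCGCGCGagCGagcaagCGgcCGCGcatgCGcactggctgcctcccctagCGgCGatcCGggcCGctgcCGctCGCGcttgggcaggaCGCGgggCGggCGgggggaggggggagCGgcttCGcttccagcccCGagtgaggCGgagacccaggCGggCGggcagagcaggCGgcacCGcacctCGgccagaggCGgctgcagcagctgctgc
CTNNA2, most upstream start: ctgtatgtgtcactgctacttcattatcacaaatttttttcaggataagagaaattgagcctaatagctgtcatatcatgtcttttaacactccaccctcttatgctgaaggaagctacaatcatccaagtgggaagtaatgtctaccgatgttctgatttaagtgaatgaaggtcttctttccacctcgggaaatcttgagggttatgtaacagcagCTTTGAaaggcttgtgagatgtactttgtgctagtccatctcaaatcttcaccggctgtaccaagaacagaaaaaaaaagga
LRRTM1 start: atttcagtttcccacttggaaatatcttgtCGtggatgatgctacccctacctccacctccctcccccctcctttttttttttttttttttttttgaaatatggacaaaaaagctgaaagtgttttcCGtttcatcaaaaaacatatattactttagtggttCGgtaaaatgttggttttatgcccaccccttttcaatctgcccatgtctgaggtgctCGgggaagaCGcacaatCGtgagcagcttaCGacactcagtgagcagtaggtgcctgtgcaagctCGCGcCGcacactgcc

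**Figure D1:**
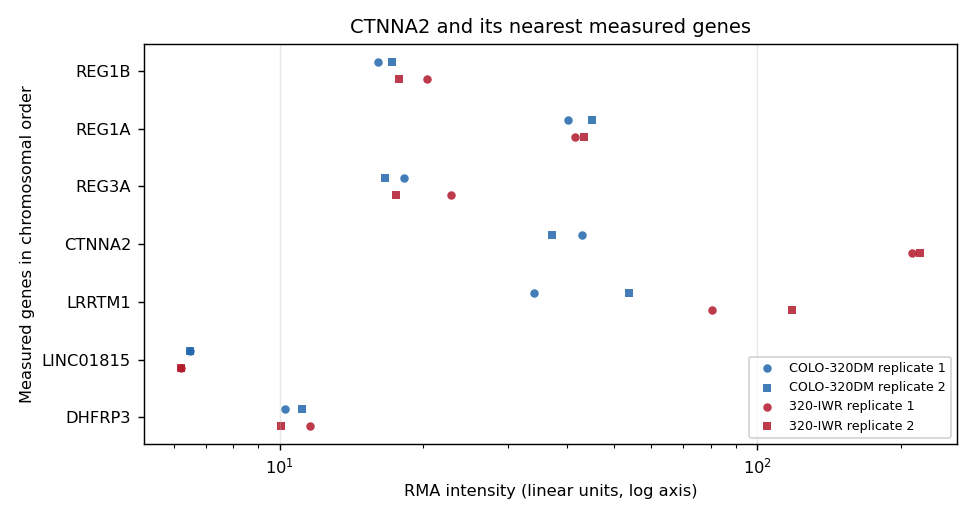
RMA intensity (log axis) of CTNNA2 and of the 3 nearest measured genes on each side, in chromosomal order, with 1 point per array, blue for COLO-320DM and red for 320-IWR, circles for replicate 1 and squares for replicate 2. CTNNA2 and LRRTM1 are the genes whose 320-IWR points lie well to the right of the COLO-320DM points, and the other 5 genes differ little.

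LRRTM1, which encodes a leucine-rich repeat protein of synapses, was the neighbour nearest to CTNNA2 in direction and size. Its intensities were 34.0 and 53.9 in COLO-320DM cells and 80.4 and 118 in 320-IWR cells. Both 320-IWR values were above both parental values, and replicate 2 was higher than replicate 1 in each line (log2 fold change 1.19, 95% interval 0.40 to 1.98, unadjusted p = 0.0121 in limma, adjusted p = 0.287). LRRTM1 did not pass this test, but it was called with the replicate number as a block (limma adjusted p = 0.038), where the log2 differences between same-numbered arrays were 1.24 and 1.13. None of the remaining neighbours was called. REG1B, REG1A and REG3A, which encode secreted lectins of the gut and pancreas, had log2 fold changes of 0.20, -0.00 and 0.20. LINC01815 and the pseudogene DHFRP3 on the other side had -0.06 and 0.02. LRRTM2, which lies inside CTNNA1 in the same arrangement, with its start 65 bases from a CTNNA1 start, measured 8.06 and 5.57 in COLO-320DM and 7.71 and 4.72 in 320-IWR cells (log2 fold change -0.15). LRRTM3 was not analysed here.

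CTNNA1 encodes αE-catenin, the α-catenin of epithelia. Its 5 probe sets were all lower in 320-IWR cells, and in each of them both 320-IWR arrays lay below both COLO-320DM arrays. The brightest, 210844_x_at, measured 1194 and 1294 in COLO-320DM and 896 and 970 in 320-IWR cells. Its log2 fold change was -0.42 (95% interval -0.74 to -0.09, limma adjusted p = 0.373), so the difference missed both limits of the call. The next brightest, 200765_x_at, measured 1104 and 1117 against 792 and 930 (log2 fold change -0.37). Probe set 1558214_s_at measured 303 and 373 against 215 and 268 (-0.49), and 200764_s_at measured 320 and 339 against 257 and 264 (-0.34). The dim probe set 215883_at measured 37.4 and 37.0 against 32.1 and 32.6 (-0.20). The first 4 of these had unadjusted p-values between 0.0227 and 0.0456 in limma, and 9.71% of all probe sets were under 0.05. These probe sets read the same transcripts and are not independent. Probe sets ending in _x_at may bind related sequences, and a probe set of the pseudogene CTNNA1P1 had a log2 fold change of 0.03. The intervals of all 5 CTNNA1 probe sets exclude a 2-fold fall.

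CTNNA3, the αT-catenin gene of heart and testis, was dim in every probe set. Its 4 probe sets lay between 6.15 and 10.9 on all arrays, with log2 fold changes from -0.01 to 0.14, and in 3 of the 4 the lines overlapped. The widest of their 95% intervals reached from -0.33 to 0.61. CTNNAL1 encodes α-catulin, a relative of α-catenin and vinculin. It measured 1895 and 1818 in COLO-320DM and 1858 and 1749 in 320-IWR cells. These values overlapped (log2 fold change -0.04, 95% interval -0.35 to 0.27).

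**Figure D2:**
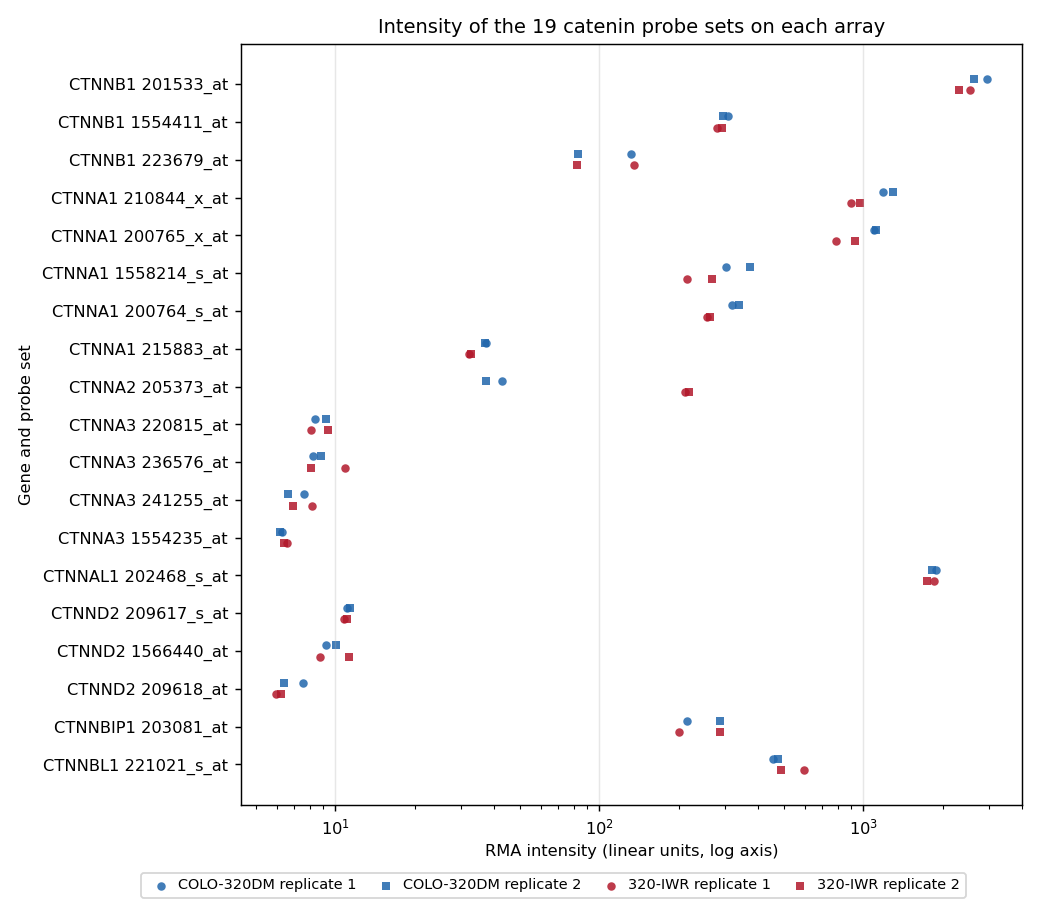
RMA intensity (log axis) of each of the 19 catenin probe sets on the 4 arrays, blue for COLO-320DM and red for 320-IWR, circles for replicate 1 and squares for replicate 2. The points of the lines are widely separated for CTNNA2 (37.2 to 42.9 against 211 to 219), slightly separated for the 5 CTNNA1 probe sets, and close together or mixed for most others.

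CTNNB1, the gene of β-catenin itself, did not pass the test in any of its 3 probe sets. The brightest, 201533_at, measured 2945 and 2623 in COLO-320DM and 2546 and 2308 in 320-IWR cells. Both 320-IWR values were below both parental values, by less than 1.5-fold at the outer end of the interval (log2 fold change -0.20, 95% interval -0.55 to 0.15, limma adjusted p = 0.808). Probe set 1554411_at measured 306 and 295 against 278 and 293 (log2 fold change -0.07). Probe set 223679_at measured 132 and 82.9 against 135 and 82.4, and there the arrays differed by replicate number and not by line (0.01, 95% interval -0.86 to 0.89).

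CTNNBIP1 and CTNNBL1 did not pass the test. CTNNBIP1 encodes ICAT, which keeps β-catenin from binding TCF factors. It measured 215 and 287 in COLO-320DM and 201 and 287 in 320-IWR cells, again with a larger difference between replicate numbers than between lines (log2 fold change -0.05, 95% interval -0.68 to 0.58). CTNNBL1, a catenin-like protein of the spliceosome that is not a junction component, measured 454 and 475 against 598 and 489. Both 320-IWR arrays were higher, but their spread was as large as the difference (log2 fold change 0.22, 95% interval -0.17 to 0.61, limma adjusted p = 0.806).

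CTNND2 encodes δ-catenin of neurons, and its 3 probe sets were dim, between 5.98 and 11.3 on all arrays. Their log2 fold changes were -0.03, 0.04 and -0.18, and the lines did not overlap in the last of them (7.54 and 6.38 against 5.98 and 6.24). The 4 probe sets shared by CTNND1, the gene of p120-catenin, and TMX2-CTNND1 cannot be assigned to either gene and are not counted among the catenin probe sets. The brightest of them, 211240_x_at, measured 376 and 336 in COLO-320DM and 509 and 476 in 320-IWR cells (log2 fold change 0.47, 95% interval 0.13 to 0.81, limma adjusted p = 0.329). The other 3 had log2 fold changes of 0.37, 0.30 and 0.15. None of the 4 was called.

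**Figure D3:**
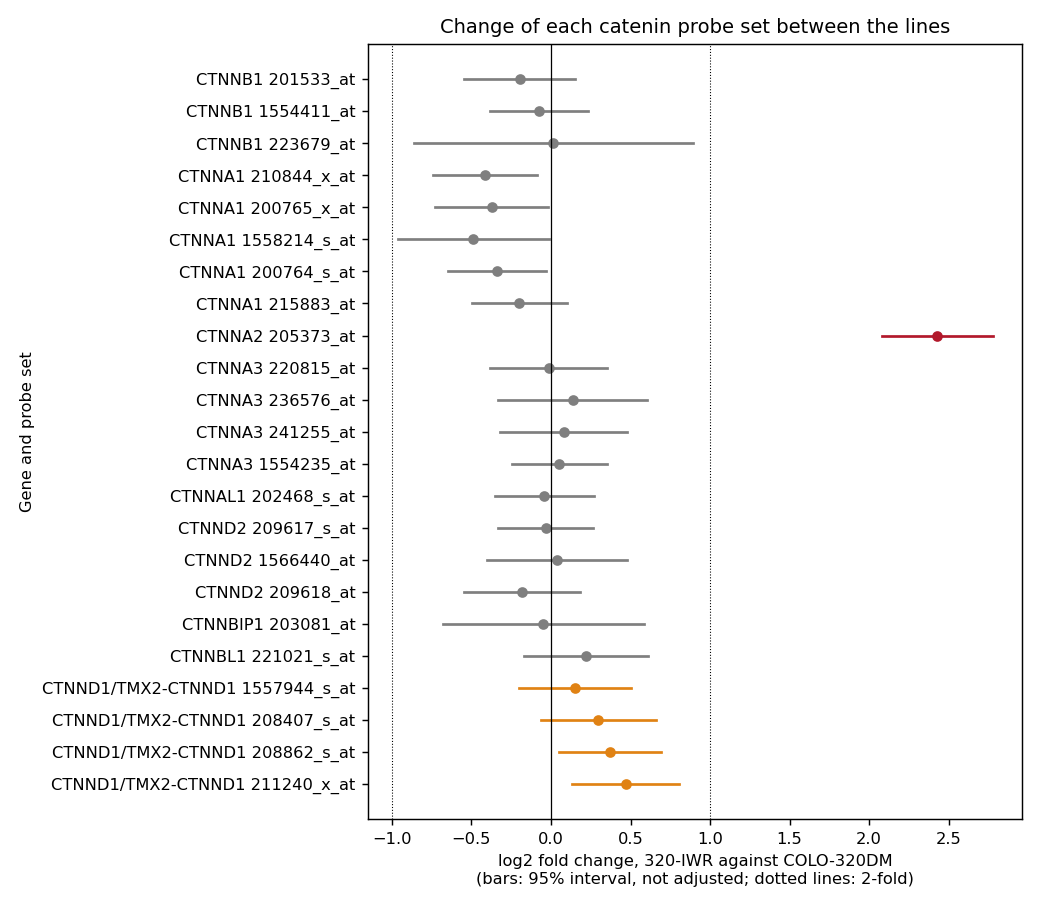
Log2 fold change of each catenin probe set (320-IWR against COLO-320DM) with its 95% limma interval, not adjusted for the number of probe sets. The red point is CTNNA2 (2.43), grey points were not called, orange points are the 4 probe sets shared by CTNND1 and TMX2-CTNND1, and dotted lines mark a 2-fold difference. All grey points lie between -0.49 and 0.22.

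Over the 19 catenin probe sets the median log2 fold change was -0.04, beside 0.01 over all probe sets. Apart from CTNNA2, all 18 had a log2 fold change smaller in size than 0.5, as did 50173 of all 54613 probe sets. The lines did not overlap in 11 of the 19, with 320-IWR above in 3 and below in 8, beside 35.6% of all probe sets (19.5% above and 16.1% below). The 5 probe sets of CTNNA1 are among these 8, so this count is not one of separate genes. Counted by the brightest probe set of each gene, 4 of the 8 genes did not overlap, beside 38.6% of all genes.

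The genes that catenins bind or that lie beside them were read from 8 lists, of which 73 of 78 genes were measured by a probe set of their own. By brightest probe sets, 1 of the 73 was called lower and 0 higher. Over all genes 0.399% were called lower, 0.192% higher and 0.592% in either direction. Of the 73, 41 had a log2 fold change below 0 and 32 above 0, beside 9050 and 10723 of all 19775 genes. An unadjusted p under 0.05 in limma was found for 14 of the 73, beside 12.3% of all genes. The median log2 fold change of the 73 was -0.04, beside 0.02 over all genes.

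Among 17 classical cadherins measured, which bind β- and p120-catenin, CDH12 was called lower. This type II cadherin of the nervous system measured 154 and 144 in COLO-320DM and 41.3 and 44.6 in 320-IWR cells. The lines were far apart (3.47-fold, log2 fold change -1.80, 95% interval -2.12 to -1.48, limma adjusted p = 0.0204). Without single arrays it had an adjusted p between 0.103 and 0.233. CDH1 and CDH2, the genes of E- and N-cadherin, were dim in both lines, with intensities of 16.2 to 18.8 and 25.2 to 28.7 and log2 fold changes of 0.11 and 0.08. The cadherin list had a median of 0.01.

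Of 6 armadillo relatives, which share the repeat of β-catenin, none was called. PKP4 encodes plakophilin 4, a member of the p120 family. Its brightest probe set measured 2554 and 1561 in COLO-320DM and 388 and 429 in 320-IWR cells. The lines were apart, and the COLO-320DM arrays differed from each other by more than the 320-IWR arrays did (log2 fold change -2.29, standard error 0.26, limma adjusted p = 0.0714). The other 4 PKP4 probe sets were lower as well, with log2 fold changes of -1.33 to -2.61. With the log2 values of its probe sets averaged before the fit, PKP4 had a log2 fold change of -2.22 and passed the test (limma adjusted p = 0.0336). That fit was adjusted over 19775 genes and not over all probe sets, so the 2 adjusted p-values are not directly comparable. PKP2, a desmosomal plakophilin, had a log2 fold change of 0.37. JUP, the gene of γ-catenin or plakoglobin, measured 147 and 180 against 145 and 181, again with a difference between replicate numbers and not between lines (-0.01).

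The actin linkers of α-catenin included no called gene among 10. VCL, the gene of vinculin, measured 986 and 1085 in COLO-320DM and 1020 and 1182 in 320-IWR cells, which overlap. AJUBA, a LIM protein of junctions, had a log2 fold change of -0.92 (limma adjusted p = 0.185), and TJP1, which encodes the tight junction protein ZO-1, had 0.43 (0.634). Of 10 partners of δ-catenins none was called, and their median was -0.20. KIFC3, a minus-end kinesin at junctions, measured 79.7 and 83.3 against 37.4 and 40.7 (log2 fold change -1.06, limma adjusted p = 0.0729, or 0.0425 when replicate number was fitted as a block). Its dimmer probe set had -0.07 with overlapping arrays, and the mean of both had -0.57 (limma adjusted p = 0.23). PLEKHA7, which links p120-catenin to microtubules, had -0.53 (0.341) in its brighter probe set and 0.00 in the other. The kinase gene FYN had -0.77 (0.225).

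The 13 genes of β-catenin turnover held no called gene. AXIN2, a scaffold of the destruction complex and itself a Wnt target, measured 5018 and 3717 in COLO-320DM and 1918 and 1888 in 320-IWR cells. All 4 AXIN2 probe sets were lower, by log2 fold changes of -1.05 to -1.35, but none was called (limma adjusted p = 0.121 for the brightest). APC, TNKS and TNKS2 had log2 fold changes of 0.12, -0.07 and -0.34, and RNF146, the ubiquitin ligase that acts on PARylated Axin, had 0.49 (limma adjusted p of at least 0.496 for these 4). Among 9 nuclear partners of β-catenin, LEF1 measured 2359 and 2746 against 1208 and 1501 (log2 fold change -0.92, limma adjusted p = 0.168), and TCF7L1 had 0.35 (0.448). Among 5 proteins of the splicing complex of CTNNBL1, the ubiquitin ligase gene PRPF19 measured 974 and 1133 against 1698 and 1828 (0.75, limma adjusted p = 0.172), and CWC15 had 0.41 (0.65). None of these was called.

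**Figure D4:**
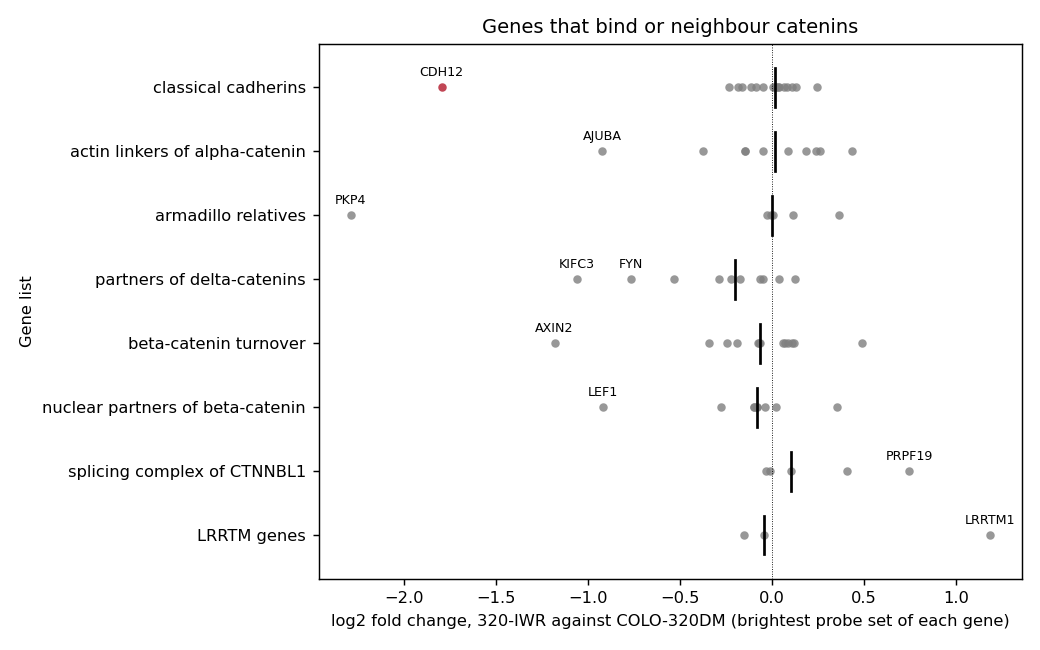
Log2 fold change (320-IWR against COLO-320DM) of the brightest probe set of each measured gene in 8 lists of genes that bind or neighbour catenins, 1 point per gene, with the median of each list as a black bar. CDH12 (-1.80) is red because it passed the test, and all other points are grey.

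The 5 genes whose values over the 4 arrays in 2 lines were most like those of CTNNA2 were CNTN3, GRIP1, SPRY2, TIAM1 and SLITRK5. Likeness is the Euclidean distance between the log2 values of the brightest probe sets after each probe set's mean was subtracted, and it was 0.05 for CNTN3 and 0.23 to 0.30 for the others. With 2 arrays a line this distance mainly reads the size of the difference between the lines. CNTN3 encodes a neuronal contactin, GRIP1 a scaffold of glutamate receptors, SPRY2 an inhibitor of receptor tyrosine kinase signaling, TIAM1 an exchange factor for Rac and SLITRK5 a synaptic membrane protein. CNTN3 rose from 5.77 ± 0.415 to 30.6 ± 0.606 (SD, n = 2 each; limma adjusted p = 0.0112). The other 4 rose with limma adjusted p-values of 0.0104 to 0.0229. Because the 5 genes were picked by likeness to the values of CTNNA2, their rise follows from that choice. These p-values are therefore no separate support for it. The log2 values of all probe sets of a gene were also averaged before the fit. GRIP1, TIAM1 and SLITRK5 then had log2 fold changes of 1.09, 1.19 and 1.67, against 2.36, 2.35 and 2.33 for their brightest probe sets. On average, the other probe sets of these genes therefore rose less, if at all. The 3 genes stayed called in this fit, adjusted over 19775 genes (limma adjusted p = 0.048, 0.0453 and 0.0147). These averages still hold the probe set by which each gene was picked.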

How the data were processed

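Each of the 2 lines has 2 arrays (100 ng of total RNA per array), and samples were grouped by their titles. According to the labels and methods, the authors made the deposited probe set intensities with RMA (version not given in the sources used here) and GeneSpring GX. Such values are quantile-normalized, so a shift common to all genes would not be seen. They are linear, and log2 was taken with a floor of 1. The number of arrays limits the precision. With R 4.3.3 and limma 3.58.1, 54613 probe sets (62 controls left out) were fitted without a filter or covariate besides the line, and p-values were adjusted over all of them. Of these probe sets, 41091 have 1 gene symbol in the platform annotation, and only these name a gene. A gene in a list stands by its brightest probe set. Promoters are from RefSeq (GRCh38.p14), and the order of genes is from the same build.

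The genes named are the catenins, called genes of the partner lists (up to 4) or else the 2 largest differences of a list, 12 fixed partner genes, the neighbours of a called catenin and the 5 genes most like CTNNA2. The catenins, lists and this rule were chosen with earlier results of these data known. The marker genes, CTNNA1P1 and the probe sets shared by CTNND1 were named in addition. The fit was tested on simulated data. The alternatives were a block for replicate number, leaving out single arrays, cyclic loess, equal medians and a filter on dim probe sets. That filter kept probe sets with a mean log2 value of at least 6 in the line with the higher mean. The others were a trended robust prior, no fold limit, averaging a gene's probe sets, no _x_at or _s_at probe sets and arithmetic means. Where probe sets were averaged or left out, p-values were adjusted over the genes or probe sets that remained.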

Additional observations from a re-analysis of the deposited data

How the results depend on the processing

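Without single arrays no probe set of a catenin was called, and none of the partner genes (0 to 0 in every such fit), and the log2 fold change of CTNNA2 ranged from 2.33 to 2.53. Each of these fits leaves a single array in a line, and each called fewer probe sets in the whole series than the fit with all arrays. The lost call is thus not particular to CTNNA2. Calls of CDH12, CNTN3, GRIP1, SPRY2, TIAM1 and SLITRK5 were lost without any 1 array too. Signs changed in these fits for genes near 0, with ranges of -0.0749 to 0.35 for CTNNA3, -0.0857 to 0.00153 for CTNNAL1, -0.30 to 0.21 for CTNNBIP1, -0.17 to 0.16 for JUP, -0.00897 to 0.17 for CDH2, -0.0206 to 0.19 for VCL, -0.51 to 0.20 for LRRTM2, -0.0845 to 0.0800 for REG1A and -0.0810 to 0.12 for DHFRP3. With cyclic loess DHFRP3 had -0.00168, and without _x_at and _s_at probe sets CTNND2 had 0.04, CDH2 -0.0418 and APC -0.00434. The direction of CTNNA2 was the same under every alternative that kept all arrays, and so was its call wherever one was tested. CTNNA2 has 1 probe set, so averaging probe sets and leaving out _x_at and _s_at probe sets reused its values. Dropping the fold limit could not lose a call, and arithmetic means gave no p-value. The filter on dim probe sets used the higher line mean, so CTNNA2 passed it only by its 320-IWR values.

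The replicate numbers in the titles are not said to mark a shared batch. Deviations of same-numbered arrays from their line's mean had a correlation of 0.661 across probe sets. With the replicate number as a block, limma called 576 probe sets (1.05% of all) in place of 202 (0.370%). The share of all genes called by their brightest probe sets was not counted in this fit. CTNNA2 stayed called (adjusted p = 0.0215) with 1 catenin probe set higher and 0 lower, the 5 CTNNA1 probe sets had adjusted p-values of 0.0895 to 0.290, and the partner genes called were 1 higher (LRRTM1, adjusted p = 0.038) and 2 lower (CDH12 and KIFC3, the latter with adjusted p = 0.0425). Without _x_at and _s_at probe sets CTNNAL1 and CTNNBL1 have no value, and the filter on dim probe sets leaves none for CTNNA3 and CTNND2.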
